A study of Drosophila melanogaster with 3 samples.

Results

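Expression of dhd, the thioredoxins, the thioredoxin reductases and the main antioxidant enzymes was examined in laser-wounded Drosophila embryos 30 min after wounding. The set holds 8 genes, taken by name: dhd, Trx-2, TrxT, Trxr-1, Trxr-2, Sod1, Sod2 and Cat. Of these, 7 had a probe of their own among 8177 named genes tested, with 1 probe each except Trxr-1, which had 2. No probe is named for Sod1 in the annotation, so it was not analysed here.

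The wounded embryos were collected at 0 to 1 h of age, dechorionated by hand, placed in halocarbon oil and ablated with a laser, while the unwounded embryos went through the same handling without ablation. Embryos of both kinds carried sGMCA, a fluorescent actin reporter, and at this age they are syncytial, meaning that many nuclei share 1 cytoplasm. On each of 3 two-colour arrays of fly cDNA clones, from experiments 3, 4 and 5, RNA of wounded embryos in Cy3 was hybridised together with RNA of unwounded embryos in Cy5. Each value is the log2 ratio of wounded over unwounded, so that -1 is a 2-fold lower level in wounded embryos. RNA was taken from whole embryos, so that loss of a transcript near the wound and a lower level throughout cannot be told apart. The sign of the deposited ratio is not stated. It was read as wounded over unwounded because genes that the study describes as raised and lowered had positive and negative values. Among them dhd is reported by the study as lowered, with a log2 change of -1.348, the same as its mean here. If the ratio runs the other way, each rise given below is a fall and each fall a rise. The dyes were not exchanged on any array, so a difference between dyes and a difference between conditions cannot be told apart.

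Thioredoxins are small proteins that reduce disulfide bonds in other proteins through a pair of cysteines. They are recharged by thioredoxin reductase with electrons from NADPH. Flies have no glutathione reductase, and the thioredoxin system also keeps glutathione reduced. Superoxide dismutases turn superoxide into hydrogen peroxide, which catalase and the peroxiredoxins remove. The gene dhd (deadhead) encodes a thioredoxin of the female germ line that is supplied to the egg and acts on sperm protamines after fertilisation.

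Wounded embryos had lower levels of the thioredoxin RNAs dhd and Trx-2. A further thioredoxin, TrxT, did not pass the test, nor did either reductase, Sod2 or Cat. A gene was called when limma gave an adjusted p under 0.05 and the change was at least 1.5-fold, which is 0.585 on the log2 scale. Of the 7 genes tested, 2 were called lower and 0 higher, and 3 had an unadjusted p under 0.05, a level that 2543 of all 10183 features (25.0%) reached. In the whole comparison, 171 of 10183 genes and probes were called lower (1.68%) and 66 higher (0.648%), or 2.33% in either direction. The genes were picked with the fall of dhd already known, so the count is a description. Calls in this comparison lie close to the threshold, with adjusted p between 0.0365 and 0.0493. With the arrays brought to a common spread, 0 features were called (smallest adjusted p = 0.062 in limma). The same held when experiment 3, 4 or 5 was left out (smallest adjusted p = 0.147, 0.0594 and 0.18 in limma), so each call below rests on all 3 arrays.

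The ratio of dhd was -1.34, -1.31 and -1.39 in experiments 3, 4 and 5. All 3 arrays thus lay within 0.0821 of each other and far below the 1.5-fold line. The mean was -1.35 ± 0.04 (SD, n = 3), or 2.54-fold lower in wounded embryos (limma, adjusted p = 0.0365, 95% interval -1.51 to -1.19). Its unadjusted p, 5.79e-06, was the smallest of all 10183 features. The adjusted p was shared by 124 features, because the Benjamini-Hochberg procedure gives ranks below a certain point the same value. Counted from the lowest ratio, dhd had rank 10 in experiment 3, rank 55 in experiment 4 and rank 23 in experiment 5. A lower mean was found for 10 features, of which 1 was called, the cytochrome P450 gene Cyp6a19. The SD of dhd was within the lowest 8.36% of features, and 9 called features, dhd included, had an SD this small. With 1 array left out the mean of dhd stayed between -1.37 and -1.32.

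The ratio of Trx-2, the thioredoxin used in most fly tissues, was -0.63, -0.85 and -0.96 in experiments 3, 4 and 5. It was lower in wounded embryos on every array, and no array reached the values of dhd. The mean was -0.82 ± 0.17 (SD, n = 3), or 1.76-fold lower (limma, adjusted p = 0.0365, 95% interval -1.04 to -0.59), with 77 features at a lower mean. With 1 array left out it lay between -0.91 and -0.74. The difference, dhd minus Trx-2, was -0.705, -0.456 and -0.433 in the 3 experiments. Each gene was measured by a single cDNA clone, and clones of related genes can cross-hybridise.

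TrxT, a thioredoxin of the male germ line, is the gene next to dhd in the RefSeq table. Its ratio was -0.60, 0.54 and -1.16 in experiments 3, 4 and 5, so that experiment 4 was on the other side of 0. The mean of -0.41 ± 0.87 (SD, n = 3) did not pass (limma, adjusted p = 0.473), and its SD was at or above that of 98.7% of features. The interval, -1.27 to 0.45, covers a fall of the size seen for Trx-2 as well as no change. On the other side of dhd, the gene CG4198 had 0.02, -0.15 and -0.14, with a mean of -0.09 ± 0.10 (adjusted p = 0.453). The next genes outward, snf and CG15930, were not among the features tested. CG4198 thus lay near 0, and for TrxT the arrays disagreed.

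**Figure D1:**
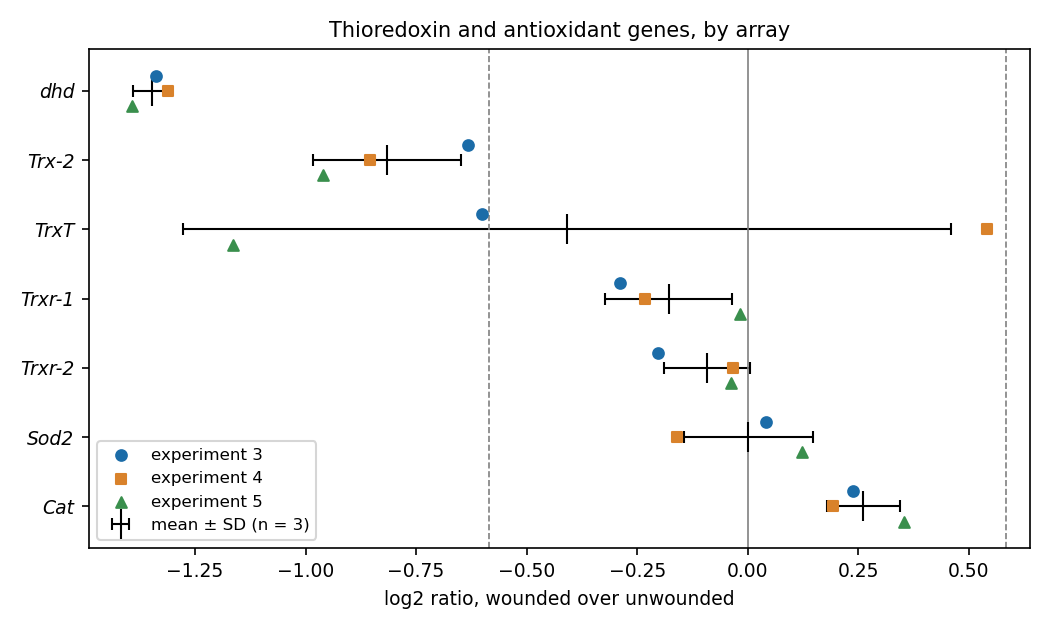
Log2 ratio of wounded over unwounded embryos (x axis) for the 7 measured genes (rows), with a point for each of experiments 3, 4 and 5 and the mean ± SD (n = 3). Dashed lines mark a 1.5-fold change. The points of dhd lie together near -1.35, those of Trx-2 lie between -0.96 and -0.63, and those of TrxT are spread on either side of 0.

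The reductases that recharge thioredoxin were closer to 0. Trxr-1 had -0.29, -0.23 and -0.02 in experiments 3, 4 and 5, and Trxr-2 had -0.20, -0.03 and -0.04. All 6 values were below 0, but the means of -0.18 ± 0.14 for Trxr-1 and -0.09 ± 0.10 for Trxr-2 did not pass (SD, n = 3; limma, adjusted p = 0.251 and 0.455). The 95% intervals, -0.39 to 0.03 for Trxr-1 and -0.27 to 0.09 for Trxr-2, do not reach the 1.5-fold line. The probes of Trxr-1 gave means of -0.19 and -0.17, and they differed by less than the spread between arrays.

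Among the antioxidant enzymes, Sod2, the mitochondrial superoxide dismutase, had 0.04, -0.16 and 0.12 in experiments 3, 4 and 5. Its mean was 0.00 ± 0.15 (SD, n = 3; limma, adjusted p = 0.994), with a 95% interval of -0.21 to 0.21. Cat, which encodes catalase, had 0.24, 0.19 and 0.35 in the 3 experiments, above 0 on every array. The mean of 0.26 ± 0.08, or 1.2-fold, had an unadjusted p of 0.0129 and did not pass (limma, adjusted p = 0.110, 95% interval 0.09 to 0.44). A further clone that the annotation gives to Cat and to 2 other gene models, CG9133 and CG9130, had 0.28, 0.12 and 0.33, and was not counted for Cat.

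In order of their means the genes ran dhd, Trx-2, TrxT, Trxr-1, Trxr-2, Sod2 and Cat. The 3 values of dhd did not overlap those of Trx-2, and those of Sod2 did not overlap those of Cat. The other neighbours in this order overlapped. How often pairs taken from all features overlap was not counted, so these statements only describe the values. The set had a median of -0.18, against 0.00 for all features tested.

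**Figure D2:**
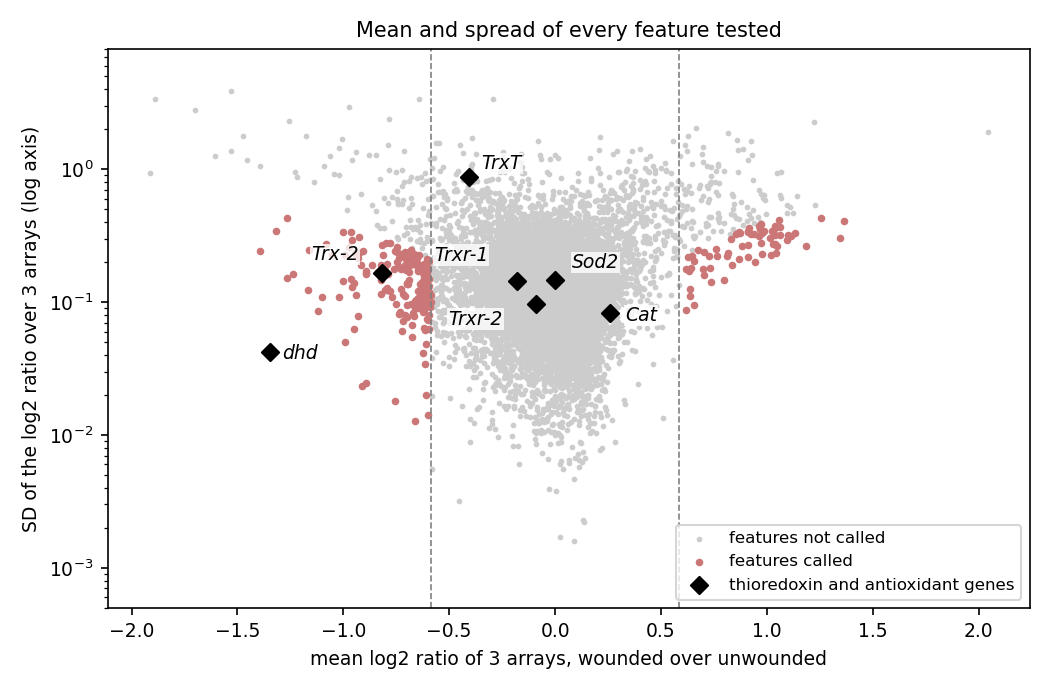
Mean log2 ratio of wounded over unwounded embryos (x axis) against the SD over the 3 arrays (y axis, log scale) for all 10183 features, with called features in red and the 7 genes as black diamonds. Dashed lines mark a 1.5-fold change. dhd combines a mean of -1.35 with an SD of 0.04, whereas TrxT has an SD of 0.87.

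Genes that work with these proteins were described in 8 lists with 61 members, of which 41 were tested, 20 having no probe of their own. Of the 41, 1 was called lower (2.44%) and 0 higher in limma, with 15 (36.6%) at an unadjusted p under 0.05, against 25.0% of all features. The share called lower was near that of all features (1.68%). The median over the 41 genes was -0.05. The same sign was seen on all 3 arrays for 33 of them, or 80.5%, against 50.3% of all features and 50.9% of named genes. The background was not matched to the lists for spot brightness. With the dyes not exchanged, a difference between dyes would also keep its sign from array to array.

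The called gene was CG8993, which encodes a protein with a thioredoxin domain. It had -0.72, -0.78 and -0.62 in experiments 3, 4 and 5, with a mean of -0.71 ± 0.08 (SD, n = 3), or 1.63-fold lower (limma, adjusted p = 0.0365). The called genes of the 7-gene set and of these lists, dhd, Trx-2 and CG8993, encode thioredoxins or a protein with their domain. However, dhd and Trx-2 come from a set picked with the fall of dhd already known, and the thioredoxin gene TrxT was not called. The other 9 tested members of the list of thioredoxin-domain proteins and glutaredoxins did not pass, and their means lay between -0.33 for CG9911 (adjusted p = 0.0967 in limma) and 0.18 for CG3719. Glutaredoxins use glutathione in place of thioredoxin reductase, and Grx1, Grx1t, Grx3 and Grx5 had means of -0.10, 0.03, -0.04 and -0.09.

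Of 5 tested genes of disulfide bond formation in the endoplasmic reticulum, none was called. Ero1L, the oxidase that recharges protein disulfide isomerases, had -0.42, -0.35 and -0.45, and its mean of -0.41 ± 0.05 had an adjusted p of 0.0456 in limma but stayed short of 1.5-fold. The isomerases ERp60 and CaBP1 had means of 0.14 and 0.10. CG9302, of the same list, had -0.15 ± 0.15.

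Peroxiredoxins, which remove peroxides, did not move together. None of the 9 tested members of the list of peroxiredoxins and peroxidases was called, and their median was 0.05. The largest values were those of Prx2540-1, at 0.68, 0.27 and 0.83 in experiments 3, 4 and 5 (mean 0.59 ± 0.29, adjusted p = 0.078 in limma), and Prx2540-2, at 0.81, 0.18 and 0.83 (mean 0.61 ± 0.37, adjusted p = 0.101). These are near-identical copies whose clones can cross-hybridise, so that they may count as 1 measurement. Mitochondrial Prx3 had 0.06 ± 0.04 and Prx6005 had -0.05 ± 0.02.

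All 4 tested genes of NADPH supply were below 0 on all 3 arrays, and none was called. The malic enzymes Men-b and Men had -0.34 ± 0.02 and -0.27 ± 0.02 (limma, adjusted p = 0.0588 and 0.0888), Pgd of the pentose phosphate pathway had -0.32 ± 0.24 and Idh had -0.27 ± 0.08. The list's median was -0.30. These values correspond to less than the 1.5-fold minimum.

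The 3 tested genes of glutathione synthesis and turnover also had means below 0, between -0.24 for Ggt-1 and -0.03 for Gclm, with Gclc, the catalytic subunit that starts glutathione synthesis, at -0.19 ± 0.08. Keap1, which holds back the antioxidant regulator cnc, had 0.40, 0.30 and 0.50 in experiments 3, 4 and 5 (mean 0.40 ± 0.10, adjusted p = 0.0584 in limma). The regulator cnc itself had -0.16 ± 0.12. None of these genes was called.

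Ccs, the chaperone that loads copper into superoxide dismutase, had -0.81, -0.82 and -0.13 in experiments 3, 4 and 5, so that experiment 5 stood apart. Its mean of -0.59 ± 0.39 had an adjusted p of 0.119 in limma. Sod3, an extracellular superoxide dismutase, had -0.27 ± 0.11 (adjusted p = 0.117). The third tested gene of that list, Rsod, lay on the other side of 0, at 0.72, 0.12 and 0.49 in experiments 3, 4 and 5 (mean 0.45 ± 0.30, adjusted p = 0.131 in limma). Among clients of thioredoxin and repair enzymes, RnrL, the large subunit of ribonucleotide reductase, had -0.13 ± 0.08. Vdup1, related to the thioredoxin-interacting protein of mammals, had 1.27, 0.16 and 0.12 in experiments 3, 4 and 5, and its mean of 0.52 ± 0.65 (adjusted p = 0.276 in limma) came mostly from experiment 3.

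**Figure D3:**
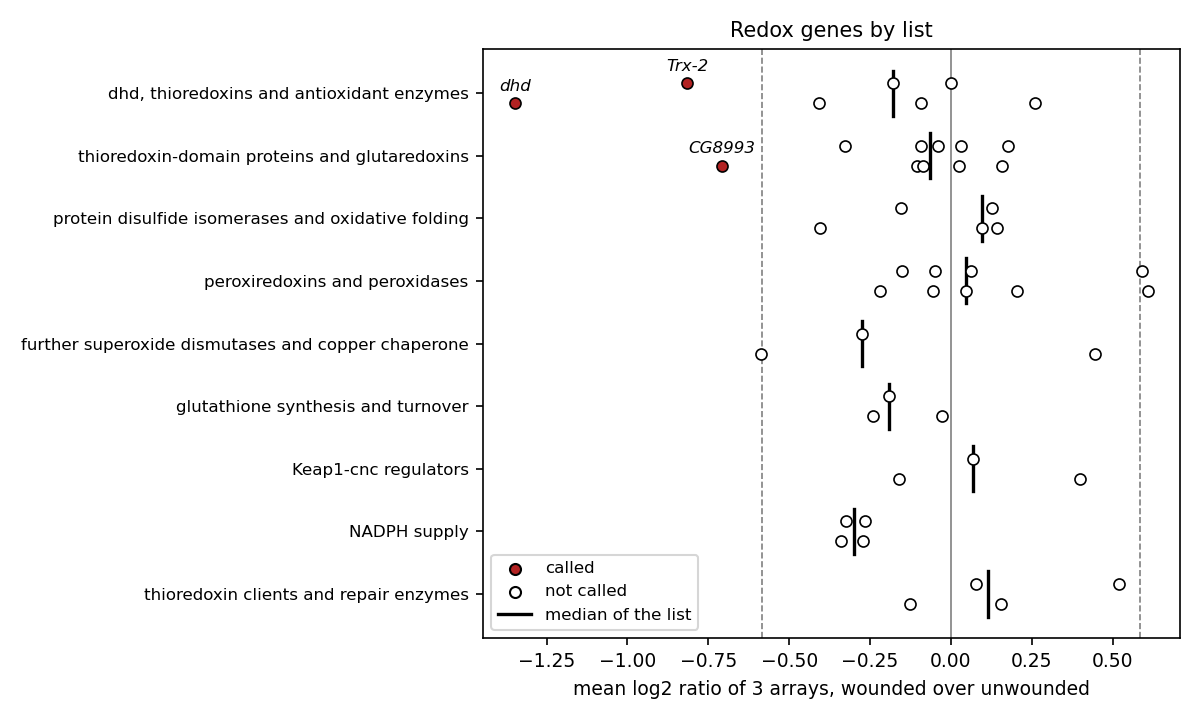
Mean log2 ratio of wounded over unwounded embryos over 3 arrays (x axis) for each tested gene (points) of the 7-gene set and of the 8 related redox lists (rows), with called genes filled and each list's median as a bar. Dashed lines mark a 1.5-fold change. The filled points are dhd, Trx-2 and CG8993, and the 4 genes of NADPH supply lie between -0.34 and -0.27.

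Genes tied to dhd by function were compared next. Of 8 genes that act in sperm chromatin remodelling at fertilisation, 7 were tested and none was called. Nap1, a histone chaperone, had -0.49, -0.36 and -0.42 in experiments 3, 4 and 5, and its mean of -0.42 ± 0.06 had an adjusted p of 0.0441 in limma but was under 1.5-fold. The protamine gene Mst35Bb had -0.24 ± 0.06 (adjusted p = 0.119), and the histone chaperone Hira had 0.05 ± 0.07. In the ovary, transcription of dhd needs lid, Sin3A, Snr1 and mod(mdg4). The 3 that were tested had positive values on every array, with means of 0.27 ± 0.06 for lid, 0.26 ± 0.17 for Snr1 and 0.21 ± 0.02 for mod(mdg4) (limma, adjusted p = 0.0965, 0.162 and 0.129), and none was called.

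Being supplied by the mother, dhd RNA was set beside other maternal and germ plasm RNAs. Of 19 tested members of that list, 4 were called lower (21.1%, against 1.68% of all features) and none higher, and the median was -0.05. Of these, exu, needed to localise bicoid RNA, had -1.17 ± 0.12, and nanos, a translational repressor of the germ plasm, had -0.73 ± 0.13. The helicase gene vas had -0.62 ± 0.09 and del, which acts in piRNA production, had -0.61 ± 0.10. The 15 members that did not pass had means from -0.36 for gnu (adjusted p = 0.0802 in limma) to 0.65 for stau, which had 0.09, 1.91 and -0.05 in experiments 3, 4 and 5. Over the whole list, 12 means were below 0 and 7 above. Below 0 were, among others, osk at -0.29 ± 0.04 (adjusted p = 0.0817 in limma), png at -0.29 ± 0.25, pum at -0.27 ± 0.28 and CycB at -0.02 ± 0.09. For tud, at -0.25 ± 0.27, the 2 probes disagreed, with means of -0.02 and -0.49. Above 0, besides stau, were bcd at 0.16 ± 0.12, rhi at 0.12 ± 0.23, Tl at 0.12 ± 0.06 and smg at 0.12 ± 0.11. The last of these were twe at 0.05 ± 0.14 and aub at 0.02 ± 0.11. The mean of dhd was lower than that of any of the 19. This is not particular to maternal RNAs, since only 10 of all 10183 features had a mean lower than dhd. Of 18 tested genes transcribed early from the embryo's own genome, 11 were called higher (61.1%, against 0.648% of all features), none lower, and 7 did not pass. Their median was 0.90, or 1.06, 0.60 and 1.01 in experiments 3, 4 and 5, and gt, odd and twi had means of -0.12, -0.05 and -0.04. These early genes mark the stage of the embryo, and the part of stage in the fall of dhd was not tested. Both the maternal and the early lists were chosen with earlier results of these data known, so their counts are a description. Some of their genes, such as exu, nullo and dpn, are among those that the study itself names as most changed. The 3 tested follicle and eggshell markers and 8 markers of tissues formed later had medians of -0.15 and -0.13, with none called.

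**Figure D4:**
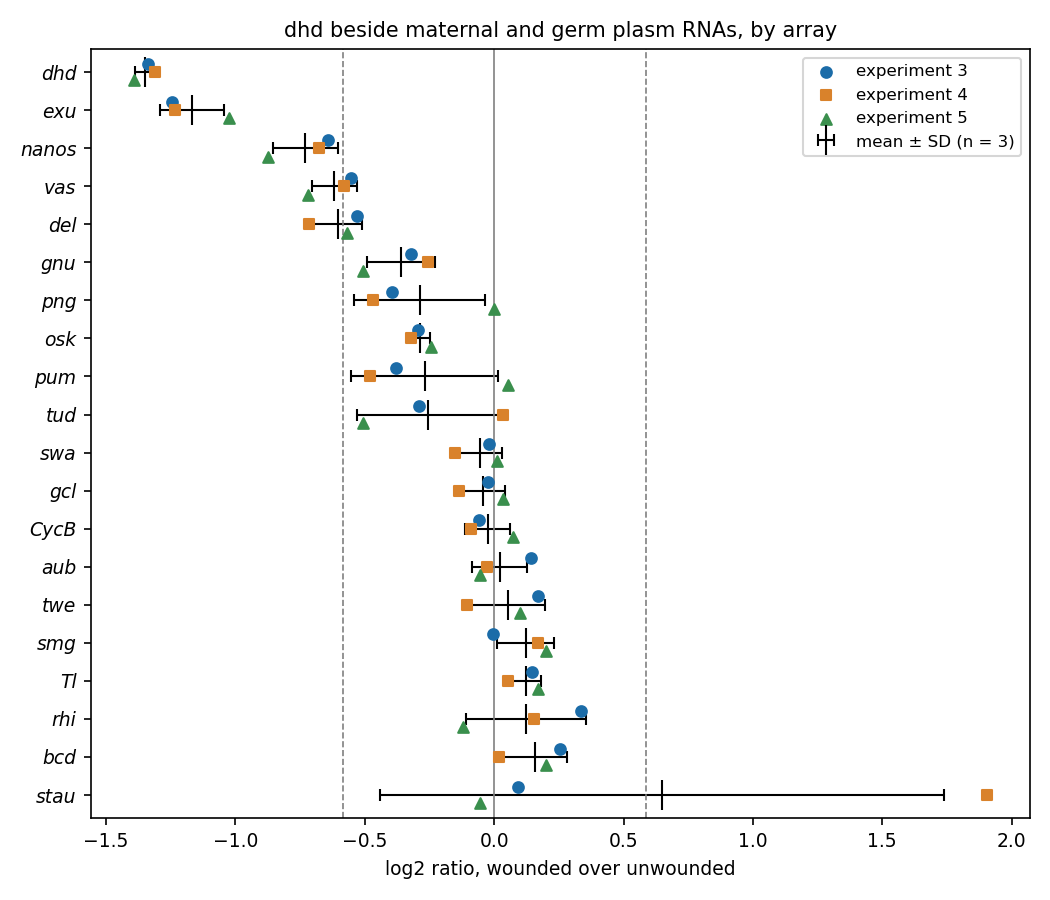
Log2 ratio of wounded over unwounded embryos (x axis) for dhd and 19 maternal and germ plasm RNAs (rows, sorted by mean), with a point for each experiment and the mean ± SD (n = 3). Dashed lines mark a 1.5-fold change. dhd lies lowest, exu, nanos, vas and del are also below -0.585 on average, and the other 15 rows have means from -0.36 to 0.65.

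The named genes whose 3 ratios lay nearest to those of dhd, by Euclidean distance over the 3 arrays among 8176 genes, were GstD1, Nacalpha, Cyp6a19, exu and Cyp6a9, at distances of 0.291, 0.324, 0.344, 0.389 and 0.462. GstD1, a glutathione transferase, had -1.14, -1.43 and -1.22 in experiments 3, 4 and 5. All 5 were called lower, with means between -1.39 and -1.16, and the smallest SD among them was 0.12 for exu, against 0.04 for dhd. The likeness is that of size of fall, since 3 arrays of 1 contrast hold no further pattern.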

How the data were processed

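The deposited table holds log2 ratios, 1 per probe and array, that the authors made from scanned spots of cDNA arrays. Per the study's methods, the authors removed spots that were dim, near background or marked as questionable, took the log2 of the channels' ratio and applied loess normalization within each array in limma. Because loess centres most ratios at about 0, a change common to most RNAs would be lost. The brightness of spots was not used here, and precision is limited by having 3 arrays. There were 12144 probes in all. The 160 plant and genomic DNA control spots were left out. Array medians lay between -0.0132 and 0.0084, and arrays correlated across features with Pearson's r between 0.315 and 0.498, given as a description.

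Gene names came from the platform annotation and were updated by gene ID against RefSeq (Release 6), from which only names and neighbouring genes were taken. Of 9917 probes with 1 symbol, 9746 matched on gene ID, 22 on symbol and 138 on a synonym, while 11 had no match and keep their platform name; 625 had several symbols and 1442 none. Probes of a gene were averaged. All 10183 features measured on each of the 3 arrays were fitted with an intercept-only model in limma (version 3.58.1, R 4.3.3), two-sided, with moderated variances and Benjamini-Hochberg adjustment over all features. A call needed an adjusted p under 0.05 and a 1.5-fold change, the study's thresholds. The model was tested on simulated data first. Intervals are 95% and not adjusted for the number of genes. The labels only number the experiments. The study's methods describe the replicates as independent, and give more of them than the 3 arrays held here.

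Named were all members, up to 4 called genes per list or otherwise the 2 with the smallest p, the 5 genes nearest to dhd and the 2 genes on either side of it. Further list genes were named after their values were seen. The members and lists were chosen with earlier results of these data known. Alternatives were each probe on its own, at least 2 arrays, centred or scaled arrays, array weights, robust moderation, other thresholds, the opposite sign and leaving out each array.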

Additional observations from a re-analysis of the deposited data

How the results depend on the processing

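The fall of dhd kept its size under all settings run, apart from the opposite sign, with means between -1.37 and -1.32, and that of Trx-2 lay between -0.91 and -0.74. Their calls did not hold throughout. After scaling the arrays to a common spread, 0 features were called in limma, with 0 members and 0 genes of the redox lists (2546 features, 3 members and 15 list genes had an unadjusted p under 0.05), and the adjusted p was 0.062 for dhd (-1.35) and for Trx-2 (-0.82); Sod2 turned to -0.0112. Testing against a 1.5-fold change in place of 0 gave 0 of each, with 118 features, 2 members and 0 list genes at an unadjusted p under 0.05. Leaving out 1 array gave 0 called features, members and list genes in each of 3 runs, while features with an unadjusted p under 0.05 numbered 1473, 2446 and 1675 without experiments 3, 4 and 5. There dhd had -1.37 to -1.32 with an adjusted p of 0.0594 to 0.18, Trx-2 had -0.91 to -0.74 with 0.0816 to 0.18, and Sod2 had -0.0597 to 0.0819; fewer arrays leave the test fewer degrees of freedom. The mean of TrxT changed with the array left out, with -0.88 without experiment 4 (adjusted p = 0.0953 in limma) and -0.03 without experiment 5. With no minimum fold, 410 features and 2 list genes (CG8993 and Ero1L, each lower) were called. At an adjusted p under 0.10, the calls were 319 features and 2 list genes (CG8993, lower, and Prx2540-1, higher). The opposite sign gives 1.35 for dhd, 0.82 for Trx-2, 0.41 for TrxT, 0.18 for Trxr-1, 0.0911 for Trxr-2, -0.0012 for Sod2 and -0.26 for Cat. The remaining settings called 215 to 261 features, 2 members and 1 list gene. Each ratio already pairs wounded and unwounded RNA of 1 experiment, so no further block was fitted.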
